A study of Mus musculus with 24 samples.

Results

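Wild-type (WT) LSK cells from bone marrow at postnatal day 28 (P28 WT) were compared with WT LSK cells from liver at postnatal day 0 (P0 WT). Each group held 4 libraries, so 8 of the 24 libraries of the series enter the comparison. They were chosen by their titles, which name the age, the genotype and the sorted cells. The series concerns leukaemia driven by the fusion gene MLL::ENL (ME), the protection of fetal cells from it, and MLL3. The WT libraries are its cells without the fusion. For the same ages and tissues in other mice, 8 further libraries were used, 4 of P0 liver and 4 of P28 marrow, from a Tet-off model in which human ME was induced at E10.5 (an embryonic day). The other libraries of the series, all of ME cells at P28, were not compared but entered the shared fit described at the end. The design text gives 4 biological replicates per age and calls the sorted cells lineage-negative and KIT-positive, while the labels call them LSK. Strain, sex, litter, the promoter of the transgene and any drug given to the WT mice are not given in the sources used here. Every P0 library came from liver and every P28 library from marrow. Age and tissue therefore cannot be told apart in any value below.

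LSK cells are lineage-negative cells that carry Sca-1, the product of Ly6a, and KIT, the receptor for stem cell factor. They include the blood stem cells and the multipotent progenitors. In the fetus and at birth these cells lie in the liver, divide fast and use a growth programme built on the RNA-binding protein LIN28B. LIN28B blocks the maturation of let-7 microRNAs, and let-7 in turn represses LIN28B and a set of growth genes. After birth stem cells settle in the marrow, divide less often and take on adult lymphoid and immune features.

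Library totals ran from 48577193 to 89774511 counts in P0 WT and from 31233688 to 75945220 in P28 WT, with counts for 22351 to 26453 genes and 1.07% to 3.46% mitochondrial counts. Values are TMM-scaled CPM (counts scaled to a common library size), and a gene was called at an edgeR adjusted p under 0.05. The sorting genes were read in each library. Kit stood at 1450, 616, 885 and 169 CPM in P0 WT libraries 1 to 4 and at 726, 586, 690 and 748 CPM in P28 WT, and was not called. Ly6a rose from 122, 86.4, 119 and 228 CPM to 301, 280, 337 and 267 CPM (log2 fold change 1.09, SE 0.21, edgeR adjusted p = 0.00151). Kmt2a (MLL), Mllt1 (ENL) and Kmt2c (MLL3), the genes of the study's question, are given with the chromatin genes below.

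The P0 WT libraries were not alike, and this bears on every fall and on the rises of stem cell genes. The summed level of 18 neutrophil genes was 1090 CPM in P0 WT library 1 but 17700, 12200 and 20000 CPM in libraries 2 to 4, against 981 to 1170 CPM in P28 WT. The sum of 29 erythroid genes was 2390 CPM in library 1, 16000 to 20700 CPM in the other P0 libraries and 2840 to 3180 CPM in P28 WT. The sum of 21 macrophage genes was 659 CPM in library 1, 3440 to 4100 CPM in libraries 2 to 4 and 803 to 973 CPM in P28 WT. For these cell types library 1 lay at or near the level of the marrow libraries, and the P0 excess came from the other 3. Mast cell and basophil genes did the reverse: their sum was 12800 CPM in library 1, 1720 to 3110 CPM in libraries 2 to 4 and 1090 to 1340 CPM in P28 WT. The sum of 25 stem cell and multipotent progenitor genes was 5990 CPM in library 1 and 3380, 3740 and 3290 CPM in libraries 2 to 4. In P28 WT it was 5760 to 6480 CPM, so library 1 lay in the marrow range for this list too. Library 4 had the lowest Kit reading and the highest mitochondrial share, 3.46%. In bulk libraries fewer cells of a type and less RNA per cell cannot be told apart.

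**Figure D1:**
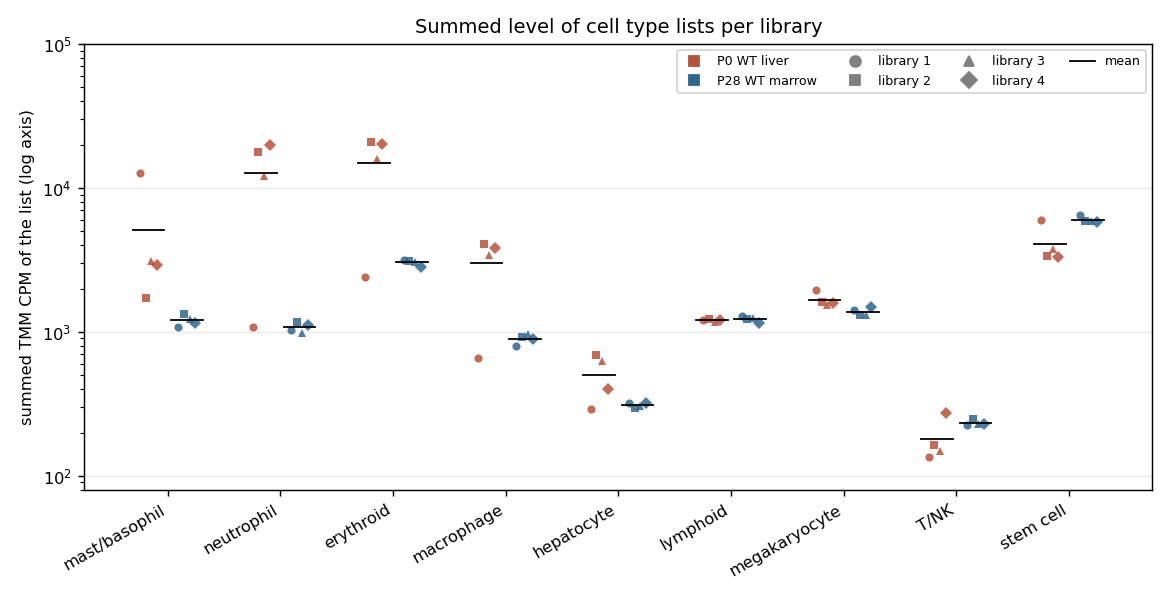
Summed TMM CPM (log axis) of 9 cell type gene lists in each of the 8 WT libraries, with P0 liver in red and P28 marrow in blue, a symbol per library number and a bar at the mean. P0 WT library 1 (circle) lies with the marrow libraries for neutrophil (1090 CPM), erythroid (2390 CPM) and macrophage genes (659 CPM) and far above all other libraries for mast cell genes (12800 CPM).

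Of 23059 genes tested, 719 were higher and 1052 lower in P28 marrow, 1771 in all (7.68%), of which 1137 changed at least 2-fold. Higher genes were 3.12% and lower genes 4.56% of those tested. The groups did not overlap for 70.2% of the called genes and for 9.27% of all genes tested. The median log2 fold change over all genes was -0.07 with TMM, -0.04 with RLE scaling and 0.08 with plain library totals, and 40.6%, 44.1% and 56.8% of the called genes were higher, so the balance of rises and falls depends on the scaling. Without P0 WT library 1 the count was 2473 of 24168 genes (10.2%; 4.61% higher and 5.63% lower), and 90.3% of the 1771 genes were called again with the same sign. Without library 4 it was 1686 of 24171 (6.98%; 2.7% higher and 4.27% lower), with 72.4% called again. It was 1137 without P28 library 1 and 1159 without P28 library 3, and 481 when the 8 WT libraries were filtered and fitted alone, which changed both the genes tested and the estimate of the spread. Gene by gene, only calls lost without 1 library are given below. Other fits lost more: H19, Cdkn1c, Meis1 and Hoxa9 with the WT libraries alone, for example, and Cstdc5 with limma voom. Of 156 called named genes 46 stayed called under all 19 alternatives.

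**Figure D2:**
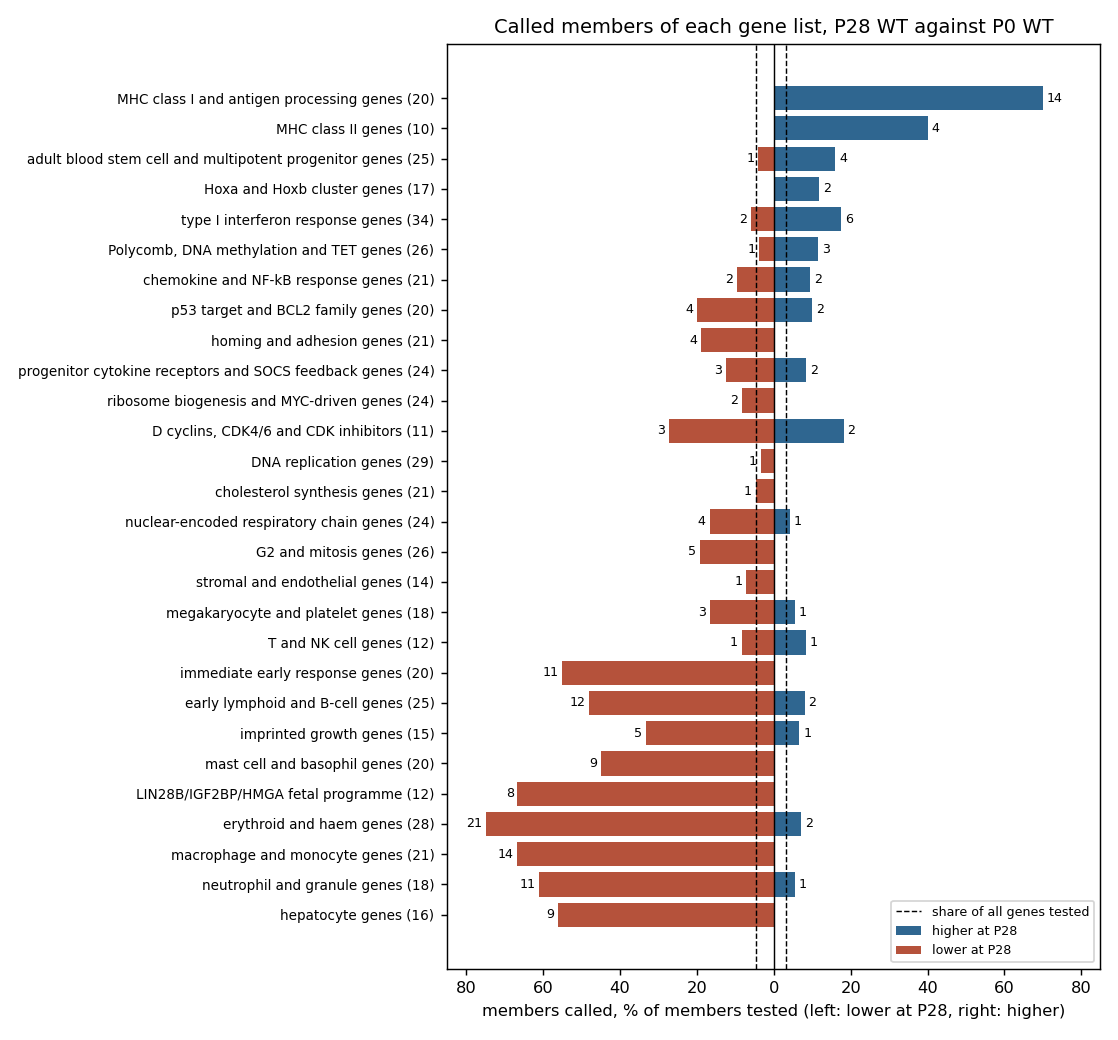
Share of the tested members of 28 gene lists that were called lower (red, left) or higher (blue, right) in P28 WT than in P0 WT, sorted by median log2 fold change, with the number called at each bar and the number tested in brackets. Dashed lines mark the shares among all 23059 genes, 4.56% lower and 3.12% higher; MHC class I genes lie far to the right (14 of 20 higher) and erythroid, macrophage and fetal programme genes far to the left.

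The fetal growth programme fell. Of 12 genes of the LIN28B, IGF2BP and HMGA group, all tested, 8 fell and 0 rose, with a median log2 fold change of -2.26 against -0.07 over all genes. Lin28b read 34.8, 38.6, 22.9 and 25.8 CPM in P0 liver and 3.91, 1.73, 2.86 and 2.07 CPM in P28 marrow. Each P0 library was above each P28 library, P0 library 1 included (log2 fold change -3.53, SE 0.76, edgeR adjusted p = 0.00593). Igf2bp1, an RNA-binding protein that stabilises growth-related mRNAs, fell from 8.8 ± 1.91 CPM (SD, n = 4) to 0.196, 0.216, 0.112 and 0.278 CPM (log2 fold change -5.45, SE 0.64, edgeR adjusted p = 6.44e-06). Its relative Igf2bp3 fell from 100, 95.8, 72.8 and 98.8 CPM to 7.32, 7.46, 12.4 and 7.7 CPM (log2 fold change -3.40, SE 0.31, edgeR adjusted p = 1.92e-07). Igf2bp3 was among the lowest p-values of the named falls, and its groups lay far apart.

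Igf2bp2 fell from 98.8 ± 42.0 to 15.2 ± 3.05 CPM (SD, n = 4; log2 fold change -2.70), with P0 library 4 the lowest of its group at 39.4 CPM. Hmga2, a chromatin protein that sustains self-renewal of fetal stem cells, read 166, 142, 79 and 181 CPM at P0 and 32.3, 38.6, 51.1 and 38.3 CPM at P28. Its log2 fold change was -1.82 (edgeR adjusted p = 0.000824), smaller than that of the IGF2BP genes, so that marrow cells still held Hmga2 RNA. The related Hmga1 fell from 315 ± 63.9 to 138 ± 42.2 CPM (SD, n = 4), and Arid3a, a transcription factor of fetal B lymphopoiesis, from 59.2 ± 25.2 to 17.0 ± 2.55 CPM. Lin28a was near the detection limit, at 0.0604 CPM in P0 library 1, 2.45 to 3.57 CPM in libraries 2 to 4 and 0 to 0.34 CPM at P28. Its call (adjusted p = 0.0269) was lost without P0 library 2 or P28 library 1, 2 or 3 (edgeR adjusted p up to 0.086). Sox17, a factor that marks fetal and neonatal stem cells, read 0.0668 to 1.55 CPM at P0 and 0.479 to 1.11 CPM at P28 and was not called. Neither were Mycn (203 ± 35.5 and 291 ± 70.3 CPM), Plag1 (3.5 ± 1.61 and 3.21 ± 1.19 CPM) nor Peg10 (1.76 ± 1.26 and 0.107 ± 0.0852 CPM; edgeR adjusted p = 0.0673).

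Because these genes are known for their link to let-7, the sequences that join them are shown. The mature let-7 family in RefSeq (GRCm38.p6) has 9 members that share 1 seed, printed in capitals in 3 of them:
mmu-let-7a-5p: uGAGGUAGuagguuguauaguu
mmu-let-7g-5p: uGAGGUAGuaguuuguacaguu
mmu-miR-98-5p: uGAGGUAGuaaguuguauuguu
The seed pairs with CTACCTC. In the GENCODE M21 transcripts (GRCm38) those letters occur in the 3′ UTR of 8 of the 12 genes: 4 times each in Lin28b, Igf2bp1 and Hmga2, 2 times each in Lin28a and Arid3a, and 1 time each in Igf2bp2, Igf2bp3 and Hmga1. Those 8 were called lower, and Mycn, Peg10, Plag1 and Sox17, which have none, were not called. That split rests on the threshold. With 1 library left out 7 to 8 of the genes fell, and Peg10, lower in the mean at P28, missed the call, as given above. One site of 4 of the genes is printed with its neighbours, the match in capitals:
Lin28b (chr10:45378647-45378670, minus strand): tatacttgttagtaaCTACCTCtg
Igf2bp1 (chr11:95961777-95961800, minus strand): gctgtgcgaagtaaaCTACCTCaa
Igf2bp3 (chr6:49086786-49086809, minus strand): tgcatttttactcaaCTACCTCag
Hmga2 (chr10:120364223-120364246, minus strand): gccgacattcaatttCTACCTCag
The match is a description and not a measured site. The list is built from known let-7 targets, so its share of 66.7% is no independent evidence, and its 3′ UTRs are long (median 2730 bases against 1110 over 15414 tested genes). Over all tested genes with a 3′ UTR 10.2% held the letters. Among those called lower it was 11.1% of 984, and among those called higher 8.83% of 623, so the letters were about as frequent in falling genes as in any. The level of mature let-7 was not measured in these libraries.

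Imprinted growth genes, expressed from 1 parental copy and mostly shut down after birth, fell in part. Of 16 such genes 15 were tested, with a median log2 fold change of -1.90. Of the 15, 5 fell (33.3% against 4.56% of all genes) and 1 rose (6.67% against 3.12%). Dlk1, a membrane protein of the NOTCH ligand type found on fetal progenitors, fell from 88.2, 61.8, 69.7 and 61.1 CPM to 1.93, 6.25, 7.39 and 2.92 CPM (log2 fold change -3.92, SE 0.35, edgeR adjusted p = 1.92e-07). Its neighbour in the same imprinted domain, the non-coding RNA Meg3, went from 3.84, 3.43, 6.74 and 3.04 CPM to 0.0559, 0.308, 0.0998 and 0.278 CPM (log2 fold change -4.51, edgeR adjusted p = 0.000344). Both genes were separated in every library, at very different levels.

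H19, the non-coding RNA beside Igf2, read 8.05, 22.9, 28.1 and 54.2 CPM at P0 and 0.0559, 0.524, 1.85 and 0 CPM at P28 (log2 fold change -5.50, edgeR adjusted p = 0.00152). Igf2 itself was low, 0.282 to 2.99 CPM at P0 and 0 to 0.449 CPM at P28, and was not called (edgeR adjusted p = 0.18). Cdkn1c, which codes for the cell cycle inhibitor p57 of quiescent stem cells, fell from 34.5 ± 4.93 to 18.1 ± 1.91 CPM (SD, n = 4; log2 fold change -0.93, edgeR adjusted p = 0.0017). Grb10, an adaptor that dampens insulin and growth factor signals, fell from 103, 101 and 124 CPM in P0 libraries 1 to 3 to 22.7 to 32.8 CPM, while P0 library 4, at 24.7 CPM, lay within the marrow range. Sgce rose from 35.2 to 45.1 CPM to 51.1 to 73.8 CPM (edgeR adjusted p = 0.0451), but its call was lost without P0 library 2 or 3 or P28 library 2, 3 or 4 (edgeR adjusted p up to 0.151). Ndn and Plagl1 were not called, at 32.1 to 45.7 and 0.788 to 12.9 CPM at P0 and 21.4 to 39.9 and 0.246 to 1.65 CPM at P28.

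**Figure D3:**
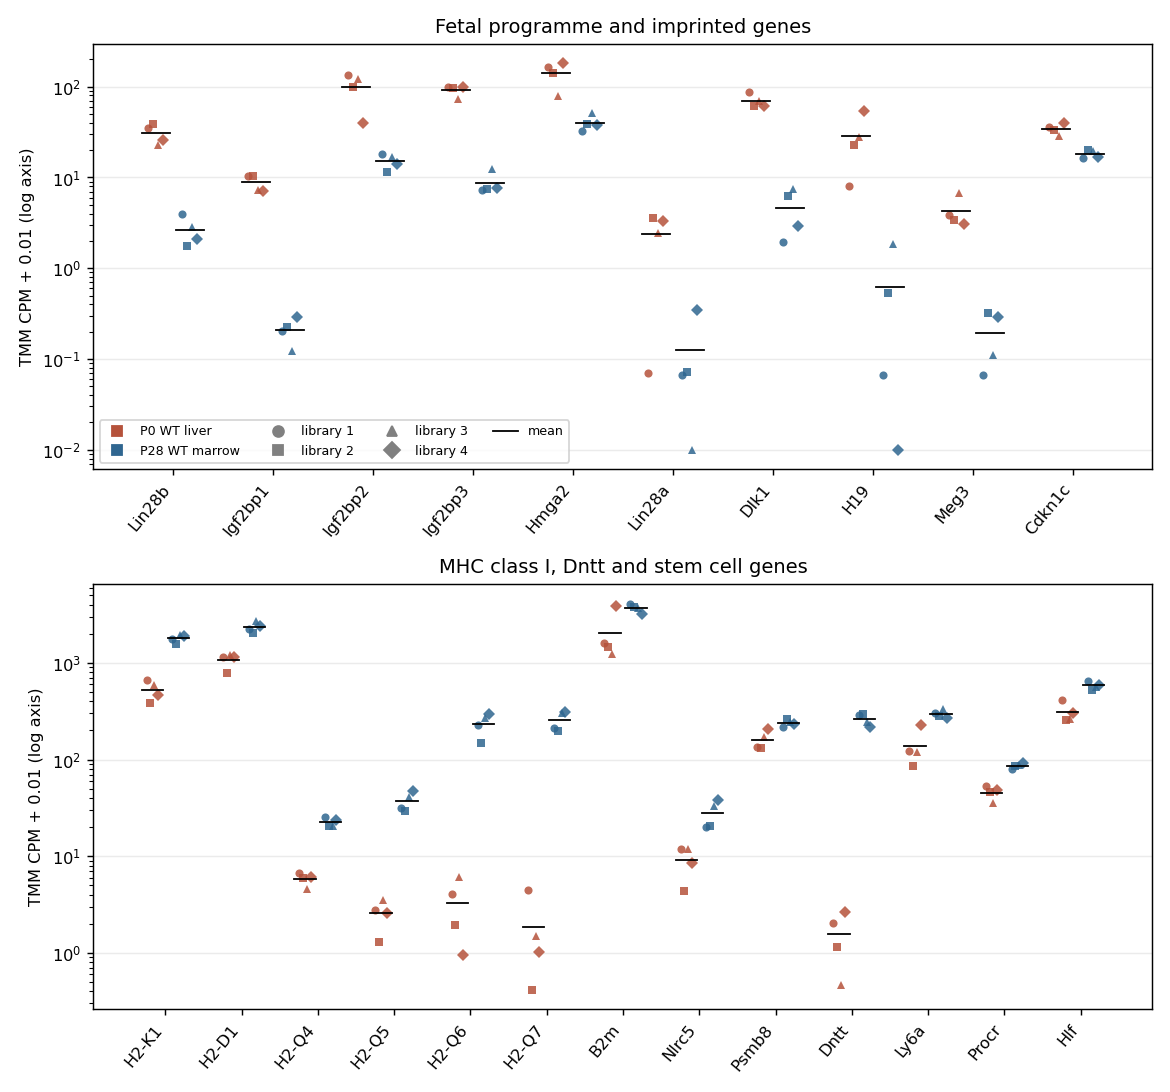
TMM CPM plus 0.01 (log axis) of named genes in each WT library, P0 liver in red and P28 marrow in blue, with a symbol per library number and a bar at the mean. In the upper panel Lin28b, Igf2bp1, Igf2bp3, Dlk1 and Meg3 have no P0 point below a P28 point, while Lin28a overlaps through P0 library 1 (0.0604 CPM); in the lower panel H2-Q6, H2-Q7 and Dntt rise from a few CPM to 150 CPM or more in each marrow library, and B2m overlaps through P0 library 4 (3840 CPM).

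MHC class I genes, which present peptides from inside the cell to CD8 T cells, rose. Of 20 class I and antigen processing genes 14 rose and 0 fell (70.0% called), with a median log2 fold change of 0.92. The classical heavy chain H2-K1 rose from 667, 382, 598 and 468 CPM to 1780, 1560, 1950 and 1880 CPM (log2 fold change 1.76, SE 0.18, edgeR adjusted p = 1.18e-06). H2-D1 rose from 1150, 790, 1210 and 1160 CPM to 2250, 2020, 2720 and 2430 CPM (log2 fold change 1.13, SE 0.15, edgeR adjusted p = 4.9e-05). The lowest marrow library stood well above the highest liver library for both.

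The Qa-2 genes H2-Q6 and H2-Q7 of the same region changed far more. H2-Q7 read 4.43, 0.403, 1.48 and 1.02 CPM at P0 and 214, 198, 305 and 310 CPM at P28 (log2 fold change 7.16, SE 0.59, edgeR adjusted p = 2e-07). H2-Q6 read 4.08, 1.92, 6.09 and 0.952 CPM at P0 and 226, 150, 268 and 294 CPM at P28 (log2 fold change 6.16, SE 0.62, edgeR adjusted p = 4.35e-06). H2-Q6 and H2-Q7 are near-identical copies and reads may be split between them in an uncertain way, since how multi-mapped reads were counted is not given in the sources used here. Of the other H2-Q genes, H2-Q5 rose from 1.29 to 3.55 CPM to 29.5 to 46.9 CPM (log2 fold change 3.87). H2-Q4 rose from 4.61 to 6.66 CPM to 20.5 to 25.3 CPM (log2 fold change 1.95), close to the change of H2-K1. The Qa-2 genes are missing or silent in some mouse strains, and the strain of either group is not given here.

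The rest of the pathway rose less. B2m, the shared light chain, read 1620, 1470, 1230 and 3840 CPM at P0 and 4110, 3770, 3700 and 3200 CPM at P28 (log2 fold change 0.86, edgeR adjusted p = 0.0219), with P0 library 4 inside the marrow range. Nlrc5, the transactivator of class I genes, rose from 11.8, 4.32, 11.9 and 8.5 CPM to 20.2, 20.7, 33.1 and 38 CPM (log2 fold change 1.62, edgeR adjusted p = 0.00408). Psmb8, an immunoproteasome subunit that cuts the peptides, rose from 161 ± 35.1 to 240 ± 19.0 CPM (SD, n = 4; edgeR adjusted p = 0.012). The peptide transporter subunit Tap2 rose from 77.4 ± 16.4 to 154 ± 16.5 CPM, whereas the proteasome activators Psme1 and Psme2 stood at 338 ± 88.2 and 308 ± 137 CPM at P0, at 352 ± 34.1 and 277 ± 26.8 CPM at P28, and were not called. When 1 library at a time was left out, 11 to 14 of the 20 genes rose, and B2m lost its call without P0 library 1, 2 or 3 or P28 library 1 (edgeR adjusted p up to 0.0841) and Psmb8 without P0 library 2 (0.0593).

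The promoters of the heavy chain genes are printed because the genes rose together. The windows are 80 bases of 4 RefSeq promoters (GRCm38.p6, 250 bases before to 50 after the start). The last capitals mark TTTCACTT, the core of the class I interferon-response element. In H2-K1, H2-D1 and H2-Q6 the first capitals mark the kappa B site of the class I enhancer. H2-Q7 does not match those kappa B letters, so only its TTTCACTT is in capitals:
H2-K1 (chr17:34000392-34000471, minus strand): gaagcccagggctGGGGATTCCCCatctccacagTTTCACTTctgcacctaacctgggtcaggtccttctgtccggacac
H2-D1 (chr17:35262910-35262989, plus strand): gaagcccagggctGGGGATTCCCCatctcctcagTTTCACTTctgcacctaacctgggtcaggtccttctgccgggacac
H2-Q6 (chr17:35424664-35424743, plus strand): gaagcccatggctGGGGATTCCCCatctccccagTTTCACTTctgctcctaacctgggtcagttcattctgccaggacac
H2-Q7 (chr17:35439008-35439087, plus strand): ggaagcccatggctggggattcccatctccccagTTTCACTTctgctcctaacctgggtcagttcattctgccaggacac
On either strand, TTTCACTT was found in 7 of 8 heavy chain promoters (H2-K1, H2-D1, H2-Q4, H2-Q6, H2-Q7, H2-T22 and H2-M3) and in 1.6% of 32851 promoters. The kappa B letters marked in H2-K1 were found in 3 of 8 (H2-K1, H2-D1 and H2-Q6) and in 0.0304% of promoters. A match in these letters is a description, and the 2 promoters with the largest rises differ in the kappa B letters.

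MHC class II genes, which present outside peptides to CD4 T cells, rose in part. Of 10 genes 4 rose (40.0% against 3.12% of all genes) and 0 fell, and the 4 were genes that load and edit peptides. H2-DMa rose from 69.3, 58.4, 41.1 and 99.2 CPM to 181, 188, 200 and 180 CPM (log2 fold change 1.48, edgeR adjusted p = 2.57e-05), and H2-DMb1 from 16.9 ± 1.49 to 42.9 ± 7.32 CPM. The H2-DM inhibitors H2-Ob and H2-Oa rose from 42.6 ± 5.08 to 124 ± 15.1 CPM and from 10.3 ± 3.27 to 20.0 ± 1.5 CPM (SD, n = 4), the last losing its call without P0 library 1 or 3 or P28 library 3 (edgeR adjusted p up to 0.0526). The chains that sit on the surface did not pass the test. H2-Aa read 19.2 to 52.8 CPM at P0 and 20.1 to 39.9 CPM at P28, and the invariant chain Cd74 63.2 to 276 and 122 to 150 CPM. The transactivator Ciita read 0.289 to 3.38 and 0.755 to 3.41 CPM. Their log2 fold changes had wide SEs, 0.88 for H2-Aa, 0.56 for Cd74 and 0.65 for Ciita, against 0.19 for H2-DMa. Whether they differ from the genes that rose was not tested.

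Interferon response genes did not move as a block. Of 34 genes 6 rose (17.6% against 3.12% of all genes) and 2 fell (5.88% against 4.56%), with a median log2 fold change of 0.06. Rises were thus more frequent than among all genes. Ly6a, the Sca-1 gene given above, was among the 6. Gbp2, a guanylate-binding protein of cell-autonomous immunity, rose from 45.6, 36, 17.8 and 29.7 CPM to 77.2, 69.4, 109 and 77.6 CPM (log2 fold change 1.37, edgeR adjusted p = 0.000372). Iigp1 and the nucleic acid sensor Zbp1 rose too, from 34.4 ± 11.0 to 77.7 ± 16.7 CPM and from 6.88 ± 3.03 to 15.4 ± 4.15 CPM (SD, n = 4). In the other direction the antiviral enzyme Rsad2 fell from 91, 273, 128 and 138 CPM to 50.5, 42.4, 62.6 and 33.2 CPM (log2 fold change -1.74, edgeR adjusted p = 0.000169). Isg15, a ubiquitin-like modifier, fell from 60.5 ± 27.6 to 26.4 ± 5.29 CPM (edgeR adjusted p = 0.0118), with P0 library 1 inside the marrow range at 22.8 CPM. The type I response genes Ifit1, Irf7 and Ifitm3 were not called, at log2 fold changes of -0.36, -0.40 and -0.13. Zbp1 lost its call without P0 library 1 or 3 or P28 library 2, 3 or 4 (edgeR adjusted p up to 0.113), Iigp1 without P0 library 3 or P28 library 4 (0.0588) and Isg15 without P28 library 1 (0.0543). Over those fits 3 to 8 genes of the list rose, 3 without P28 library 4 and 8 without P0 library 2 or 4.

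Among 25 stem cell and multipotent progenitor genes 4 rose (16.0% against 3.12% of all genes) and 1 fell (4.0% against 4.56%). Procr, the protein C receptor that marks long-term stem cells, rose from 52.8, 45.8, 35.6 and 48.3 CPM to 79.5, 85.6, 87.3 and 92.8 CPM (log2 fold change 0.92, SE 0.16, edgeR adjusted p = 0.000539). Hlf, a transcription factor that keeps stem cells quiescent, rose from 409, 256, 265 and 301 CPM to 656, 526, 565 and 591 CPM (log2 fold change 0.93, SE 0.17, edgeR adjusted p = 0.00135). Meis1, the HOX partner, rose from 277, 165, 143 and 156 CPM to 350, 299, 334 and 334 CPM (log2 fold change 0.83, edgeR adjusted p = 0.00624). For the last 2 genes P0 library 1 was the closest to the marrow. Angpt1, a ligand of the TIE2 receptor, read 325 CPM in P0 library 1, 104 to 125 CPM in libraries 2 to 4 and 303 to 426 CPM at P28 (edgeR adjusted p = 0.0141), so its groups overlapped through that library.

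Without P0 library 1, 7 of the 25 genes rose. Ctnnal1, a stem cell marker, fell from 73.8, 45.1 and 65.2 CPM in P0 libraries 1 to 3 to 13.9 to 19.7 CPM, with P0 library 4 below the marrow at 10.2 CPM (edgeR adjusted p = 0.0131). Mecom, Slamf1 and Cd48 were not called, with log2 fold changes of 0.39, -0.78 and -0.03. Flt3, the receptor of multipotent and lymphoid progenitors, stood at 493 to 929 CPM in liver and 1130 to 1260 CPM in marrow without overlap, yet missed the threshold (log2 fold change 0.91, edgeR adjusted p = 0.0818), as did Cd34 (700 to 1060 and 1170 to 1340 CPM, edgeR adjusted p = 0.0825). Of 17 tested Hoxa and Hoxb genes 2 rose (11.8% against 3.12% of all genes) and 0 fell. Hoxa9 rose from 90.3, 72.2, 60.2 and 85 CPM to 124, 118, 115 and 134 CPM (log2 fold change 0.68, edgeR adjusted p = 0.0144). Hoxa2, at 0 to 0.463 CPM in liver and 0.531 to 2.58 CPM in marrow, lost its call without P0 library 2 or 3 or P28 library 3 (edgeR adjusted p up to 0.0864). Hoxb4 was not called.

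Cytokine receptors of 2 kinds rose. Of 24 receptor and feedback genes 2 rose (8.33% against 3.12% of all genes) and 3 fell (12.5% against 4.56%). Il1r1, the interleukin-1 receptor, rose from 46.9, 23.9, 30.1 and 25 CPM to 122, 92, 94.1 and 94.2 CPM (log2 fold change 1.68, SE 0.30, edgeR adjusted p = 0.000758). Csf3r, the G-CSF receptor, rose from 34.7 to 90.3 CPM to 104 to 141 CPM (log2 fold change 0.87, edgeR adjusted p = 0.0144). The 3 that fell, Csf1r, Epor and Il7r, belong also to the macrophage, erythroid and lymphoid lists. The macrophage and erythroid sums were higher in P0 libraries 2 to 4 than in marrow, as given above, and their part in the result was not tested. The lymphoid sum was 1180 to 1230 CPM in liver and 1160 to 1290 CPM in marrow. That sum includes Dntt, at 0.455 to 2.61 CPM in liver and 217 to 294 CPM in marrow, while 12 of the 25 genes fell. The near-equal sums therefore do not show equal levels of the other lymphoid genes. Igf1r, Ifngr1, Socs2 and Socs3 were not called, at log2 fold changes of -0.25, -0.47, -0.54 and 0.00.

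Lymphoid genes split. Of 25 genes 2 rose (8.0% against 3.12% of all genes) and 12 fell (48.0% against 4.56%), with a median log2 fold change of -1.46. Dntt, terminal deoxynucleotidyl transferase, adds untemplated bases at the joints of antigen receptor genes and is an adult feature of lymphoid progenitors. It read 2.01, 1.13, 0.455 and 2.61 CPM in P0 liver and 291, 294, 247 and 217 CPM in P28 marrow (log2 fold change 7.42, SE 0.91, edgeR adjusted p = 5.42e-05). No rise was larger among the called genes whose mean log2 CPM reached 3 and whose groups were separate. Il2rg, the common cytokine receptor chain, rose from 102, 76.3, 110 and 131 CPM to 168, 163, 156 and 131 CPM (edgeR adjusted p = 0.0261), and lost its call without P0 library 2 or P28 library 1, 2 or 3 (edgeR adjusted p up to 0.1).

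The B-cell genes fell. Igll1, a surrogate light chain of B-cell precursors, read 1.65, 81.4, 93.3 and 147 CPM at P0 and 3.72 to 9.27 CPM at P28 (log2 fold change -3.90, edgeR adjusted p = 0.00484). Pax5, the factor that fixes B-cell identity, read 0.0402, 3.28, 6.21 and 4.31 CPM and 0 to 0.0773 CPM (edgeR adjusted p = 0.00687). P0 library 1 lay within the marrow range for Pax5 and below it for Igll1. Rag1, a subunit of the recombinase, fell from 2.41, 18.1, 7.18 and 13.9 CPM to 0.125 to 1.48 CPM and Lef1 from 0.362, 31, 33.5 and 24 CPM to 0.14 to 3.14 CPM. Il7r, the interleukin-7 receptor, fell from 16.3 ± 9.67 to 3.68 ± 1.75 CPM (SD, n = 4; edgeR adjusted p = 0.0184), with P0 library 4 low at 2.41 CPM. Its call was lost without P0 library 2 or P28 library 1, 2 or 4 (edgeR adjusted p up to 0.0685). The transcription factors Satb1 and Gata3 of T-lineage commitment were not called. Of 12 tested T and NK cell genes 1 rose (8.33% against 3.12% of all genes) and 1 fell (8.33% against 4.56%). Lck rose (27.2 to 43.1 CPM against 54.7 to 67.9 CPM) and Trbc2 fell (24.3 to 53.6 against 7.43 to 13.6 CPM).

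Genes of maturing myeloid cells were much lower in marrow. Of 18 neutrophil genes 11 fell and 1, Csf3r, rose. Ngp, a granule protein, read 23.4, 2490, 1240 and 2720 CPM at P0 and 18.2, 34, 18.4 and 25 CPM at P28 (log2 fold change -6.08, edgeR adjusted p = 0.0095). S100a8, a calcium-binding alarmin, read 15.5, 3350, 2000 and 3730 CPM and 38.7, 107, 21.7 and 40.1 CPM (edgeR adjusted p = 0.0202). Mpo, myeloperoxidase of primary granules, read 679, 3320, 3230 and 2900 CPM and 352 to 466 CPM (log2 fold change -2.60, edgeR adjusted p = 0.0135). P0 library 1 lay among or close to the marrow libraries for each gene, as the neutrophil sums above show. Elane, at 1.65 CPM in library 1, 1130 to 2370 CPM in libraries 2 to 4 and 49.6 to 76.4 CPM in marrow, was not called (edgeR adjusted p = 0.0577). Without library 1, 16 of the 18 fell, and without P28 library 1, 6. S100a8 lost its call without P28 library 1, 3 or 4 (edgeR adjusted p up to 0.0688).

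The stefin A cluster on chromosome 16, inhibitors of cysteine proteases, holds several near-identical genes, so that their reads may be divided in an uncertain way. Cstdc5 stood at 2.41, 769, 235 and 1070 CPM in P0 liver and at 0 in all 4 marrow libraries. That is at least 7970-fold below the liver mean, with a floor of 3 counts per library (0.065 CPM). Such bounds and ratios, here and below, are taken from the liver mean. They need not hold for each liver library, and for these genes P0 library 1 lay much nearer the floor. Stfa3 (0.583, 120, 44.2 and 165 CPM) and Csta2 (0.161, 35, 8.07 and 55.6 CPM) were also at 0 in marrow, at least 1270-fold and 380-fold lower. They followed the neutrophil genes in being low in P0 library 1. Cstdc6 and Stfa2, at least 960-fold and 879-fold lower, lost their calls when 1 library was left out: Cstdc6 without P0 library 2 or any of the P28 libraries (edgeR adjusted p up to 0.0631), Stfa2 without P28 library 1, 3 or 4 (0.055).

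Of 21 macrophage genes 14 fell and 0 rose, with a median log2 fold change of -3.24. Vsig4, a complement receptor of resident macrophages, read 1.57, 34.8, 35.8 and 86.7 CPM in liver and 0 in each marrow library, at least 611-fold lower. Adgre1, which codes for F4/80, read 5.71, 153, 101 and 109 CPM at P0 and 0.123 to 2.6 CPM at P28 (log2 fold change -6.11, edgeR adjusted p = 0.0024). Csf1r, the receptor macrophages need to live, read 62.8, 231, 274 and 140 CPM and 8.81 to 15.3 CPM (log2 fold change -3.78, edgeR adjusted p = 0.000216). These 3 were above the marrow in P0 library 1 too. C1qa (5.21 CPM in library 1, 102 to 192 CPM in libraries 2 to 4, 4.84 to 11.3 CPM in marrow), Cd5l and Vcam1 overlapped through that library. The scavenger receptor Marco fell from 5.73, 121, 132 and 119 CPM to 0 to 0.186 CPM, and lost its call without P28 library 3 or 4 (edgeR adjusted p up to 0.0544). Without P0 library 1, 17 of the 21 fell.

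Mast cell genes fell against a liver level that was highest in P0 library 1. Of 20 mast cell and basophil genes 9 fell and 0 rose. Cma1, mast cell chymase, read 2020, 149, 356 and 358 CPM at P0 and 0.168, 0, 0 and 0.0155 CPM at P28 (log2 fold change -14.28, SE 2.30, edgeR adjusted p = 0.000803). The tryptase Tpsb2 read 4890, 355, 886 and 663 CPM and 0, 0, 0.025 and 0.0464 CPM, a ratio of 72300 with a counting interval of 31000 to 223000, which covers counting error in marrow only. Its copy Tpsab1 (22.3 to 200 CPM in liver) was at 0 in marrow, at least 1210-fold lower, and their reads may be divided uncertainly. Library 1 was highest for each, and every P0 library was above every marrow library.

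Tph1, which starts serotonin synthesis, read 571, 28.2, 95.2 and 42 CPM at P0 and had 1 count over the marrow libraries, a ratio of 39200 (counting interval 7040 to 1550000). Cpa3, the mast cell carboxypeptidase, fell from 2540, 224, 394 and 361 CPM to 2.54 to 13.1 CPM (log2 fold change -6.51, edgeR adjusted p = 0.000806), and Hdc, which makes histamine, from 1190, 175, 451 and 99 CPM to 3.76 to 7.27 CPM (log2 fold change -6.53, edgeR adjusted p = 6.41e-05). The basophil and mast cell genes Ms4a2 and Mitf were not called. Without P0 library 1, again 9 genes of the list fell. Tpsb2 lost its call when any of the P28 libraries was left out (edgeR adjusted p up to 0.0627) and Mcpt4 without P28 library 1, 3 or 4 (0.0576).

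Of 28 tested erythroid genes 21 fell and 2 rose, with a median log2 fold change of -3.07. The adult beta globin Hbb-bs read 132, 5670, 3800 and 5480 CPM in liver and 175, 124, 147 and 119 CPM in marrow (log2 fold change -4.74, edgeR adjusted p = 0.00645). Slc4a1, the band 3 anion channel of red cells, read 4.55, 318, 323 and 88.6 CPM and 1.27 to 4.11 CPM (log2 fold change -6.35, edgeR adjusted p = 0.00437). The alpha globin copies Hba-a1 and Hba-a2 both fell (log2 fold changes -5.23 and -5.04), but are near-identical genes. In P0 library 1 Hbb-bs, Hba-a1 and Hba-a2 lay within the marrow range and Slc4a1 just above it. The embryonic alpha-like globin Hba-x stood at 0.121 to 5.93 CPM in liver and at 3 counts in all over the marrow libraries, a ratio of 175 (counting interval 60.0 to 850).

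Gata1, the master regulator of the red cell and mast cell lines, was an exception in that library 1 was not low: it read 21.5, 19.5, 11.5 and 21.1 CPM at P0 and 1.63 to 6.9 CPM at P28 (log2 fold change -2.08, edgeR adjusted p = 0.00497). Klf1 and Car1 were not called, Klf1 at 1.19 CPM in library 1, 24.6 to 44.4 CPM in libraries 2 to 4 and 3.42 to 9.8 CPM in marrow. The 2 rises were small: Car2 from 1020 to 1400 CPM to 1490 to 1750 CPM, and the transcription factor Nfe2 from 327 to 415 CPM to 448 to 565 CPM. Car2 lost its call without P0 library 1, 2 or 3 or P28 library 1, 2 or 3 (edgeR adjusted p up to 0.0714) and Nfe2 without P0 library 2 or P28 library 3 or 4 (0.106). Hba-x lost it without P0 library 2 or 4 or any of the P28 libraries (0.121). Leaving out 1 library gave 13 to 24 erythroid falls, 13 without P0 library 2 or P28 library 2 and 24 without P0 library 1.

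Of 18 tested megakaryocyte genes 3 fell and 1 rose (22.2% called against 7.68% of all genes), with a median log2 fold change of -0.57. Clec1b, the platelet receptor CLEC-2, fell from 1.07, 10.3, 6.85 and 14.4 CPM to 0, 0, 0 and 0.0928 CPM (log2 fold change -8.13, edgeR adjusted p = 0.000169), and Rap1b, a small GTPase of platelet activation, from 788 ± 136 to 473 ± 72.6 CPM. Pf4, Itga2b, Vwf and Selp were not called. Vwf read 21, 23.3, 34.6 and 1.54 CPM at P0 and 6.56 to 14.5 CPM at P28, with library 4 below the marrow. Gp5 rose (edgeR adjusted p = 0.0239) but lost its call without P0 library 2 or 3 or P28 library 3 (up to 0.0893).

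Hepatocyte RNA was present in the liver libraries only at low levels. Of 16 tested hepatocyte genes 9 fell and 0 rose, with a median log2 fold change of -5.83, or -5.38 with genes at the floor set to their bound. Alb, albumin, read 20.1, 43.8, 31.6 and 37.1 CPM at P0 and 0, 0, 1.8 and 0 CPM at P28, and was not called (edgeR adjusted p = 0.101). Ahsg, fetuin A, read 9.52, 41, 27.3 and 20.7 CPM and 0, 0, 0 and 0.108 CPM (log2 fold change -9.50, edgeR adjusted p = 0.000344). Ttr, transthyretin, at 0.523 to 9.27 CPM in liver, was at 0 in marrow, at least 97.9-fold lower. Afp (15.1 to 31.3 and 15.4 to 21 CPM) and Hnf4a (18.7 to 57.7 and 65.8 to 81.1 CPM) were read in both tissues and not called. The summed list stood at 290 to 693 CPM in liver and 296 to 323 CPM in marrow. Of 14 stromal and endothelial genes 1 fell (7.14% against 4.56% of all genes). It was the lymphatic and liver sinusoid receptor Lyve1, which went from 1.49 to 3.08 CPM to 0 to 0.14 CPM. Cxcl12, Cdh5 and Kdr were not called.

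Immediate early genes, which cells switch on within minutes of a stimulus, were lower in marrow. Of 20 genes 11 fell and 0 rose, with a median log2 fold change of -1.21, and the 2 groups did not overlap for any of the 11. Fos read 11.1, 59.1, 34 and 51.3 CPM at P0 and 0.419, 1.48, 1.55 and 0.68 CPM at P28 (log2 fold change -5.23, SE 0.61, edgeR adjusted p = 6.35e-06). Its partner Jun read 29.7, 125, 147 and 32.1 CPM and 11.2, 13.6, 10.7 and 9.15 CPM (log2 fold change -2.91, SE 0.42, edgeR adjusted p = 9.45e-05). Egr1, a growth-response factor linked to stem cell retention, fell from 208, 61, 52.7 and 37.6 CPM to 19.3 to 22 CPM (edgeR adjusted p = 0.00731). P0 library 1 was lowest for Fos and Jun and highest for Egr1.

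Klf2, a quiescence factor of lymphocytes and endothelium, read 300, 26, 19.9 and 33 CPM at P0 and 2.06 to 6.43 CPM at P28 (log2 fold change -4.72, edgeR adjusted p = 0.000351). Atf3 was near the floor, at 0.133 to 2.1 CPM in liver and 2 counts over the marrow libraries, a ratio of 108 (counting interval 29.8 to 889), and lost its call without P28 library 2, 3 or 4 (edgeR adjusted p up to 0.0765). Without P0 library 1 the number of falls was 12, and without library 4 it was 10. These genes also respond to tissue dissociation and sorting, and the handling times of the 2 tissues are not given here; their part in the result was not tested.

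Of 21 chemokine and NF-kB genes 2 rose (9.52% against 3.12% of all genes) and 2 fell (9.52% against 4.56%). Ccl3, a chemokine that recruits monocytes, rose from 8.25, 1.77, 2.5 and 5.81 CPM to 20.9, 25.8, 17.5 and 17.6 CPM (log2 fold change 2.16, edgeR adjusted p = 0.00329). Ccl5 rose from 0 to 1.13 CPM to 2.24 to 9.01 CPM. Ccl6 and Nfkbiz fell, with log2 fold changes of -2.39 and -1.18. Of these 4, 3 lost their calls when 1 library was left out: Ccl5 without P0 library 2 or 4 or P28 library 1 or 3 (edgeR adjusted p up to 0.12), Ccl6 without P0 library 4 or P28 library 1, 2 or 4 (0.128) and Nfkbiz without P0 library 3 or P28 library 2, 3 or 4 (0.0821). Nfkbia and Tlr4 were not called.

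**Figure D4:**
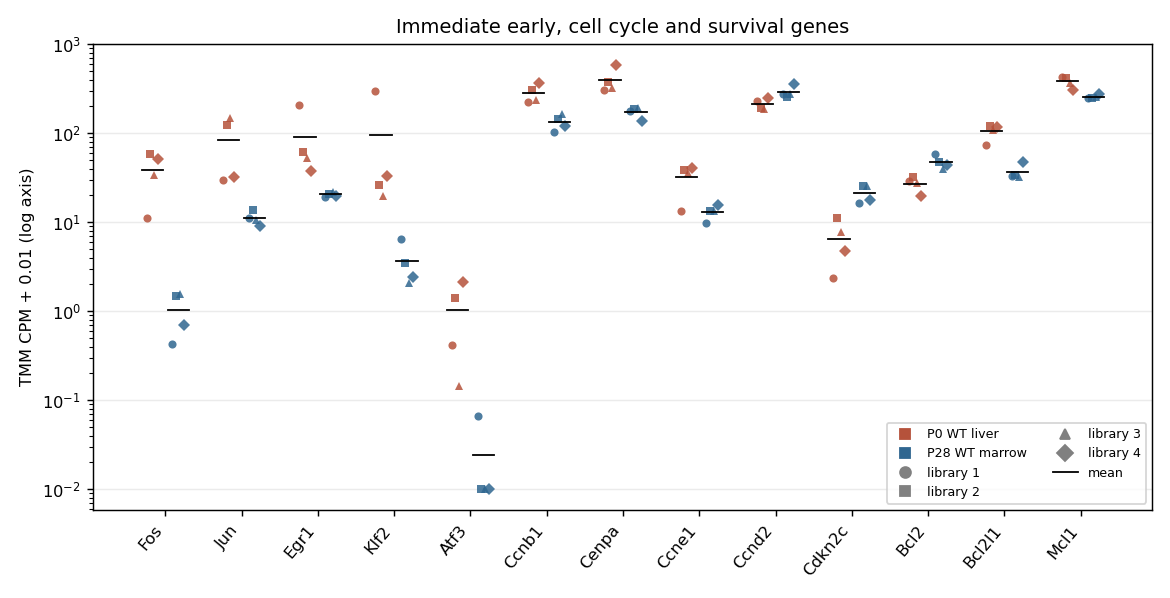
TMM CPM plus 0.01 (log axis) of immediate early, cell cycle and survival genes in each WT library, P0 liver in red and P28 marrow in blue, with a symbol per library number and a bar at the mean. Fos, Jun, Egr1 and Klf2 lie higher in each liver library than in each marrow library, Bcl2 and Bcl2l1 move in opposite directions, and Egr1 and Klf2 are highest in P0 library 1 (208 and 300 CPM).

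With all libraries, mitosis genes were called lower more often than all genes, and replication genes were not. Of 26 mitosis genes 5 fell (19.2% against 4.56% of all genes) and 0 rose. Of 29 replication genes 1, Ccne1, fell (3.45%). Ccnb1, the cyclin that drives entry to mitosis, fell from 222, 310, 235 and 369 CPM to 104, 145, 163 and 122 CPM (log2 fold change -1.09, SE 0.18, edgeR adjusted p = 0.000431). Cenpa, the centromere histone, fell from 303, 377, 325 and 582 CPM to 179, 188, 191 and 136 CPM (log2 fold change -1.19, SE 0.21, edgeR adjusted p = 0.000735). Bub1 and Cdk1 fell, with log2 fold changes of -0.81 and -0.80. The proliferation marker Mki67, at 78 to 105 CPM in liver and 56.8 to 91.1 CPM in marrow, and Top2a, Mcm5, Pcna and E2f1 were not called, with log2 fold changes of -0.34, 0.11, -0.28, -0.45 and -0.50. The difference between the 2 lists was not tested. Without P0 library 1, 7 of 29 replication and 7 of 26 mitosis genes fell, against 5.63% of all genes, so that fit did not show the contrast. With 1 library left out, replication falls ran from 0 to 7 and mitosis falls from 3 to 7. Bub1 lost its call without P0 library 2 or P28 library 2 (edgeR adjusted p up to 0.0841), Cdk1 without P0 library 4 or P28 library 1 or 4 (0.1) and Ccne1 without P28 library 1 (0.0611).

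Of 11 tested D cyclins, their kinases and CDK inhibitors 2 rose (18.2% against 3.12% of all genes) and 3 fell (27.3% against 4.56%). Cdkn2c, which codes for the CDK4 and CDK6 inhibitor p18, rose from 2.37, 11.2, 7.65 and 4.79 CPM to 16.4, 25.5, 25.2 and 17.6 CPM (log2 fold change 1.70, edgeR adjusted p = 0.00156). Its relative Cdkn2d (p19) fell from 75, 87.4, 87.1 and 153 CPM to 41.5, 52.6, 57.1 and 50.3 CPM (log2 fold change -1.0, edgeR adjusted p = 0.00102), Cdkn1c fell as given above, and Cdkn1a (p21) fell from 19.2 ± 3.56 to 6.83 ± 2.24 CPM (edgeR adjusted p = 0.0329). So inhibitors moved both ways, while Cdkn1b (p27), Cdk6, Ccnd1 and Ccnd3 were not called. Ccnd2 rose from 188 to 248 CPM to 256 to 356 CPM (edgeR adjusted p = 0.0434). Cdkn1a lost its call without P0 library 1 or 2 or P28 library 2, 3 or 4 (edgeR adjusted p up to 0.104), and Ccnd2 without P0 library 2 or 3 or P28 library 1, 3 or 4 (0.179).

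Survival genes of the BCL2 family moved in opposite directions. Bcl2 rose from 28.9, 31.9, 27.9 and 19.9 CPM to 58.1, 47.8, 39.6 and 44.4 CPM (log2 fold change 0.81, SE 0.17, edgeR adjusted p = 0.00338). Bcl2l1, which codes for BCL-XL, fell from 74.4, 120, 108 and 119 CPM to 33.1, 33.6, 32.3 and 47.6 CPM (log2 fold change -1.52, SE 0.19, edgeR adjusted p = 1.14e-05). Mcl1, which stem cells need to survive, fell from 431, 418, 371 and 306 CPM to 248, 250, 256 and 278 CPM (log2 fold change -0.57, edgeR adjusted p = 0.00313). No liver library overlapped a marrow library for any of the 3. Pmaip1, the death-promoting NOXA, fell from 4.77, 7.72, 0.999 and 17.8 CPM to 0.449 to 0.99 CPM (edgeR adjusted p = 0.00139). Phlda3 rose by 0.72 (edgeR adjusted p = 0.0361), a call lost without P0 library 2, 3 or 4 or P28 library 3 or 4 (up to 0.113). Over the list of 20 p53 and BCL2 genes 2 rose (10.0% against 3.12% of all genes) and 4 fell (20.0% against 4.56%). Bcl2l1 is also a late erythroid survival gene. The erythroid sum was higher in P0 libraries 2 to 4 than in marrow, and its part in the result was not tested.

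Of 26 chromatin genes 3 rose (11.5% against 3.12% of all genes) and 1 fell (3.85% against 4.56%). The Polycomb protein Cbx6 rose from 63, 55.1, 63.3 and 49.8 CPM to 109, 95.8, 117 and 128 CPM (log2 fold change 0.96, SE 0.18, edgeR adjusted p = 0.0016). Kmt2a, the gene for MLL, rose from 38.1, 25.8, 17.1 and 28.3 CPM to 36.2, 44.1, 39.9 and 46.4 CPM (log2 fold change 0.61, edgeR adjusted p = 0.0297), and Kmt2d, another histone H3 lysine methyltransferase gene, from 24.9 ± 3.22 to 41.9 ± 6.27 CPM. Kmt2c read 36, 24, 40.4 and 23.9 CPM at P0 and 34.6, 24.4, 33.2 and 33.7 CPM at P28 (log2 fold change 0.02, SE 0.24) and Mllt1 71.2, 58, 93.2 and 22.7 CPM and 71.3, 67.9, 63 and 87.7 CPM (0.24, SE 0.26), neither of them called. The DNA methyltransferase Dnmt3b fell from 236, 153, 233 and 66.5 CPM to 65.9, 84.7, 84.6 and 110 CPM (log2 fold change -1.0, edgeR adjusted p = 0.0239). Ezh1, Ezh2, Cbx2, Cbx7, Dnmt3a and Tet1 were not called. When 1 library was left out, Kmt2a lost its call without P0 library 2 or 3 or P28 library 2, 3 or 4 (edgeR adjusted p up to 0.0896), Kmt2d without P0 library 2 or 4 or P28 library 4 (0.0619), and Dnmt3b without P0 library 1 or 3 or P28 library 1, 2 or 3 (0.0925).

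Homing genes that tie stem cells to their niche mostly missed the threshold. Of 21 such genes 4 fell (19.0% against 4.56% of all genes) and 0 rose. The chemokine receptor Cxcr4 read 41.4 to 69.1 CPM in liver and 36.1 to 48.6 CPM in marrow, and the integrins Itga4 and Itga6 36.7 to 153 and 40.9 to 119 CPM in liver and 51 to 66.9 and 77.9 to 99.1 CPM in marrow, none of them called. Robo4 was not called. S1pr1, the receptor for the exit signal sphingosine 1-phosphate, fell from 60, 42.4, 66.2 and 56.6 CPM to 29.4, 31.6, 39.2 and 24.9 CPM (edgeR adjusted p = 0.0154), Jam3 from 29.2 ± 11.9 to 14.8 ± 1.29 CPM, and Thbs1 from 0.785, 77.1, 46.7 and 43.3 CPM to 0 to 0.526 CPM. The other was the adhesion molecule Vcam1, given with the macrophage genes. S1pr1 lost its call without P0 library 3 or P28 library 1 or 4 (edgeR adjusted p up to 0.0632) and Jam3 without P0 library 1 or 4 or any of the P28 libraries (0.133). The chemokine receptor Cxcr3, outside the list, fell from 22.6, 25.3, 27.9 and 41.8 CPM to 3.27, 1.66, 4.7 and 3.99 CPM (log2 fold change -3.10, edgeR adjusted p = 8.29e-06).

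Among metabolic and growth lists, the respiratory chain was called more often than all genes. Of 24 ribosome biogenesis and MYC-driven genes 2 fell (8.33% against 4.56% of all genes) and 0 rose. Of 21 cholesterol synthesis genes 1 fell (4.76%, near the share of all genes) and 0 rose. Of 24 respiratory chain genes 4 fell and 1 rose (20.8% called against 7.68% of all genes). The number of respiratory chain falls rested on single libraries: it was 8 without P0 library 1, 1 without P0 library 4 and 0 without P28 library 1, 3 or 4. Myc read 121, 306, 291 and 323 CPM at P0 and 351, 349, 397 and 532 CPM at P28 without overlap, but was not called (log2 fold change 0.65, edgeR adjusted p = 0.0848). Sdha, a subunit of complex II, rose from 415, 395, 415 and 231 CPM to 651, 591, 633 and 531 CPM (log2 fold change 0.72, edgeR adjusted p = 0.00352), while its partners Sdhb and Sdhd fell, with log2 fold changes of -0.62 and -0.69. The falls were small and P0 library 4 was highest for both, at 536 and 764 CPM. Both lost their calls when single libraries were left out, Sdhb without P0 library 3 or 4 or P28 library 1, 3 or 4 (edgeR adjusted p up to 0.0871) and Sdhd without P0 library 2 or 4 or P28 library 1, 3 or 4 (0.0913). Ncl, Cox4i1 and Sqle were not called.

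Outside the lists, the genes with the largest or surest rises were of mixed function. Dipk1b, a member of a family of secretory pathway kinases, had the lowest p of the named rises: 20.7, 19.5, 19.9 and 16.5 CPM at P0 and 108, 113, 100 and 118 CPM at P28 (log2 fold change 2.52, SE 0.18, edgeR adjusted p = 5.58e-09). Gas6, a ligand of the TAM receptor kinases, rose from 7.14, 7.02, 5.41 and 4.19 CPM to 39.6, 27.6, 28.4 and 39.3 CPM (log2 fold change 2.51, edgeR adjusted p = 1.92e-07). Esr1, oestrogen receptor alpha, rose from 3.54, 1.29, 2.94 and 3.69 CPM to 42.3, 30.7, 38.3 and 57 CPM (log2 fold change 3.88, SE 0.45, edgeR adjusted p = 6.35e-06). The liver and marrow groups of all 3 were wide apart. Vldlr, a lipoprotein receptor, rose from 12.4, 3.87, 9.69 and 1.65 CPM to 98.1, 77.8, 88.9 and 93.9 CPM, and Ltbp3, which binds latent TGF-beta, from 14.2, 6.17, 7.19 and 10.7 CPM to 67.5, 50.6, 70.6 and 73.6 CPM.

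Among the falls with the lowest p, Sgk1, a glucocorticoid-induced kinase, went from 54.1, 43.4, 32.4 and 53.4 CPM to 6.04, 9.61, 8.06 and 5.88 CPM (log2 fold change -2.63, edgeR adjusted p = 2.72e-07). St3gal5, which makes the ganglioside GM3, fell from 114, 158, 137 and 123 CPM to 26.3, 26.7, 13.5 and 27.4 CPM (log2 fold change -2.50, edgeR adjusted p = 3.18e-06). Col18a1, a basement membrane collagen, fell from 132, 58.5, 98.6 and 44.3 CPM to 2.66, 3.45, 6.1 and 3.05 CPM (log2 fold change -4.45, edgeR adjusted p = 6.15e-06). P0 library 1 was the highest liver library for Sgk1 and Col18a1 and the lowest for St3gal5, and was far above the marrow for each. The signalling adaptor Grap and the protocadherin Pcdh7 fell too, with log2 fold changes of -3.70 and -3.11.

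The same ages and tissues were compared in the 8 ME libraries, which share no library with the WT groups but were fitted in the same model. There 2257 genes were higher (9.79%) and 1949 lower (8.45%) in P28 marrow, 4206 in all (18.2%). Of the 1771 genes called in WT, 994 (56.1%) were also called in ME with the same sign and 17 with the opposite sign, and the 994 were 23.6% of the ME calls. The sign was the same in ME, called or not, for 89.4% of the WT calls and for 62.4% of all genes tested. Both share the change of age and tissue. The ME P0 libraries also differed among themselves, with neutrophil sums from 1020 to 40700 CPM and macrophage sums from 560 to 5930 CPM, against 1260 to 2100 and 452 to 629 CPM in ME at P28.

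The fetal and MHC lists are given in both genotypes. Their counts have unlike backgrounds: among all genes 9.79% rose and 8.45% fell in ME, against 3.12% and 4.56% in WT. In ME, 7 of the 12 fetal programme genes fell (median -2.26 in WT and -2.26 in ME), and 16 of the 20 class I genes rose (median 0.92 and 1.17). Of the 10 class II genes 4 rose in either genotype, with medians of 0.41 in WT and 0.03 in ME. Igf2bp3 changed by -3.40 in WT and -3.24 in ME, Dlk1 by -3.92 and -3.91, Lin28b by -3.53 and -4.27, H2-K1 by 1.76 and 1.97, Esr1 by 3.88 and 3.83 and Dntt by 7.42 and 10.53 on the log2 scale. Values lay further apart for Igf2bp2 (-2.70 in WT and -1.68 in ME), Hmga2 (-1.82 and -2.70), H2-Q5 (3.87 and 2.85) and H2-DMb1 (1.35 and 0.56). None of these differences was called (edgeR adjusted p from 0.132 for H2-DMb1 to 0.999 for Dlk1), which does not show that they are equal.

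**Figure D5:**
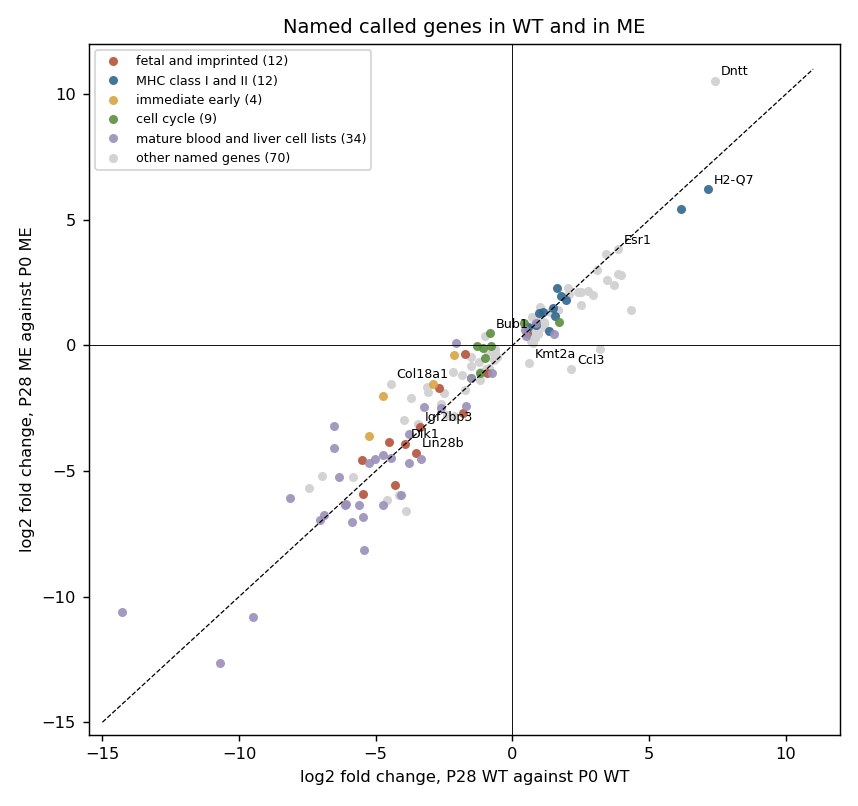
Log2 fold change from P0 liver to P28 marrow in ME (vertical) against WT (horizontal) for 141 named genes called in WT and above the floor in marrow, coloured by gene group, with equality as a dashed line. Kmt2a, Ccl3 and Bub1 lie on opposite sides of 0 in the 2 genotypes, and Col18a1 falls less in ME (-1.53) than in WT (-4.45).

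A direct test of the difference between genotypes called 166 of 23059 genes (0.72%). By list, 7 of 29 replication genes and 4 of 26 mitosis genes were among them. The replication list had a median log2 fold change of -0.29 in WT, where 1 gene fell. In ME its median was 0.81, and 16 of the 29 genes rose and 0 fell, while 9.79% of all genes rose in ME. Mcm5, a subunit of the replicative helicase, changed by -0.28 in WT and 1.12 in ME (difference 1.39, SE 0.30, edgeR adjusted p = 0.0314). Bub1 changed by -0.81 and 0.48 (difference 1.29, edgeR adjusted p = 0.0407), Kmt2a by 0.61 and -0.70 (difference -1.31, edgeR adjusted p = 0.017) and Ccl3 by 2.16 and -0.94 (difference -3.10, edgeR adjusted p = 0.0247). Mean Kmt2a was 27.3 CPM in WT and 91.5 CPM in ME at P0, and 41.6 and 56.4 CPM at P28. Only the ME cells carry the human fusion, which holds MLL sequence. Whether its reads were counted as mouse Kmt2a was not tested. Col18a1 fell by 4.45 in WT and by 1.53 in ME (difference 2.92, edgeR adjusted p = 0.036). The number called rested on single libraries and ran from 11 to 1653. It was 301, 45, 42 and 1653 without P0 WT library 1, 2, 3 or 4, and 27, 27, 59 and 91 without P28 WT library 1, 2, 3 or 4. It was 62 and 41 without P0 ME library 2 or 4, and 11, 12 and 55 without P28 ME library 1, 2 or 3.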

How the data were processed

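RNA of sorted cells was sequenced in 24 libraries. The authors deposited raw counts per gene in 1 table. STAR 2.7.9a, Subread, featureCounts 2.0.3 and GRCm38 are named in the submitters' processing notes, while strand setting and multi-mapped reads are not given in the sources used here. Of 55774 entries 287 repeats were dropped.

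Counts were fitted over 24 libraries and 6 groups with edgeR 4.0.16 (TMM, filterByExpr with 10 counts, quasi-likelihood test, Benjamini-Hochberg adjustment over all genes) in R 4.3.3. limma 3.58.1 and DESeq2 1.42.0 served as alternatives, besides scalings, filters, a replicate block and leaving out libraries. Scripts were tested on simulated data. The p-values measure the spread between libraries labelled as biological replicates. Intervals and the floor of 3 counts per library cover counting error only.

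Members, lists and tests were chosen with earlier results of these data known. Named genes were the 10 largest and 10 lowest-p rises and falls (mean log2 CPM of at least 3, no overlap), preset members of each list with up to 4 called members a direction, and 5 checks. Other list members were named after their values were seen. Some genes are not reported here by name and still count in the totals.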

Additional observations from a re-analysis of the deposited data

Results flagged for a closer look

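In 396 groups of 4 libraries of the named genes, those whose highest library reached 2 CPM, the gap between 1 library and the nearest other, relative to the whole range on the log2(CPM + 0.1) scale, was compared with Dixon's critical value, which chance passes in about 1 of 20 groups. The libraries that stood apart are given with their TMM CPM in brackets. In P0 WT library 1 these were Myl10 (2.96), Lin28a (0.0604), Angpt1 (325), Igll1 (1.65), Pax5 (0.0402), Lef1 (0.362), Mpo (679), Elane (1.65), Ngp (23.4), S100a8 (15.5), Fcnb (1.09), S100a9 (12.2), Hbb-bs (132), Hbb-bt (368), Hba-a1 (80.4), Klf1 (1.19), Hba-a2 (61), Adgre1 (5.71), Cd5l (4.63), Marco (5.73), C1qc (5.87), Ttr (0.523), Ccne1 (13.5), Thbs1 (0.785) and Myc (121). In P0 WT library 2 these were H2-D1 (790) and Irf7 (123). In P0 WT library 3 these were Igf2bp3 (72.8), Gata1 (11.5) and Ezh2 (63.6). In P0 WT library 4 these were Grb10 (24.7), Il7r (2.41), Vwf (1.54), Itgb3 (3.91), Lck (43.1), Sdha (231) and Uqcrfs1 (409). In P28 WT library 1 these were Ciita (0.755), Igf1r (24.9) and Il1r1 (122). In P28 WT library 2 these were Cd48 (298), Csf3r (104), Ezh1 (36.1), Cbx7 (24.4), Kmt2c (24.4) and Uqcrfs1 (187). In P28 WT library 3 these were Igf2bp3 (12.4), St3gal5 (13.5), Cpa3 (2.54), C1qa (11.3) and Top2a (350). In P28 WT library 4 this was Bcl2l1 (47.6). Of these, 25 were in P0 WT library 1 and 7 in library 4.

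The change from P0 to P28 differed between ME and WT by a direct test in edgeR for 5 named genes. The change in ME minus that in WT was 2.92 for Col18a1, 1.39 for Mcm5, 1.29 for Bub1, -1.31 for Kmt2a and -3.10 for Ccl3 on the log2 scale. Whether reads of the human fusion were counted as Kmt2a in ME was not tested.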

How the results depend on the processing

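The count of 1771 WT genes became 2720 with DESeq2 and 481 with the compared groups alone, and ran from 1137 to 2473 when 1 library at a time was left out. It was 1733 with RLE scaling, 1668 with plain totals, 1286 with limma voom, 1246 with no filter, 1738 with a stricter filter and 2000 without P0 WT libraries 1 and 4, the last chosen after seeing the data. The ME count of 4206 ran from 2687 to 4735 with 1 library left out. The 166 genes that differed between genotypes became 86 with RLE scaling, 73 with plain totals, 774 with DESeq2, 644 with limma voom, 65 with no filter, 41 with the compared groups alone, 364 with the 20 numbered libraries, 1537 without P0 WT libraries 1 and 4, and 11 to 1653 with 1 library left out. The 994 genes shared with ME became 434 at an adjusted p under 0.01. The cause was not tested.

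With the replicate block over the 20 numbered libraries the WT count was 1687 (1793 without it), the ME count 4370, and the genotype difference 331. With the block in the 8 WT libraries alone, chosen after seeing the data, the WT count was 215. Deviations of same-numbered WT libraries correlated at -0.0572, -0.0759, 0.143 and -0.394, so the numbers were not taken as pairs, and not every library correlated best with its own number.

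Of 226 named genes 156 were called, 46 of them under all 19 alternatives and 108 whichever library was left out, and 0 called genes changed sign. Of the 70 others, 21 changed sign at least once. With 4 libraries a group, genes near the floor of 3 counts have no usable fold.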
